A study of Rattus norvegicus with 4 samples.

Results

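The mitochondrial ribosomal protein genes were taken as every row of the deposited table whose symbol was Mrpl or Mrps followed by a digit, which gave 75 of the 15731 genes. They carry 73 different symbols, because Mrpl36 and Mrpl53 are each listed in 2 rows under different Ensembl identifiers. Of the 75 rows, 46 name proteins of the large subunit (Mrpl) and 29 name proteins of the small subunit (Mrps).

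The data are RNA-seq levels of cultured neonatal rat ventricular cardiomyocytes, the contractile heart muscle cells of the newborn, transfected with a synthetic miRNA mimic. The mimics carried the human 5p strand of miR-106b or of miR-93 or the human 3p strand of miR-25, and the worm miRNA cel-miR-67 served as the control, with 1 library for each of the 4 mimics. All cells came from Wistar rats labelled wild type and 1 day old, received 25 nM of mimic by the treatment protocol, with other text giving 25 mM, and gave RNA 72 h later by the labels, whereas the study's own outline of the experiment gives a shorter time. Cells were preplated on plastic before seeding, a step that leaves mostly cardiomyocytes in suspension, and how many hearts were pooled, or whether the 4 dishes came from 1 isolation, is not given in the sources used here. With 1 library per group no test across samples was possible, so an effect of a mimic and a difference between dishes cannot be told apart, and all 3 comparisons with cel-miR-67 share the same control library.

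Mitochondrial ribosomes sit in the mitochondrial matrix and translate the few mRNAs encoded by mitochondrial DNA, all of which encode subunits of the respiratory chain and ATP synthase. Their RNA is made in the mitochondrion, whereas every one of their proteins is encoded in the nucleus, made in the cytosol and imported. Part of the proteins have counterparts in bacterial ribosomes, and the rest were gained during the evolution of mitochondria. Heart muscle is rich in mitochondria and depends on respiration for contraction.

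The 3 miRNAs are encoded next to each other, and the rat mature forms from RefSeq (build GRCr8) are shown because they divide the mimics by seed, the bases 2 to 8 that pair with target mRNAs, here in capitals. miR-106b and miR-93 share 1 seed and miR-25 has another. The rat entries lie on the minus strand of chromosome 12, at chr12:22157103-22157123 for miR-106b, chr12:22156894-22156916 for miR-93 and chr12:22156652-22156673 for miR-25.
rno-miR-106b-5p: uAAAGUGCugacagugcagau
rno-miR-93-5p: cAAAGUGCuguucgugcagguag
rno-miR-25-3p: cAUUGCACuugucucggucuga

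Levels are given as RPKM, read counts scaled by gene length and by library size. Reads on the listed genes numbered between 15175184 and 18797233 per library. The whole reads behind each RPKM value could be recovered for 15728 of the 15731 genes, and a mitochondrial ribosomal protein gene had between 68 and 2253 of them in a library. The 95% intervals below are exact Clopper-Pearson intervals from these reads. Only counting error is covered by them, and the spread between dishes is not.

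All 75 genes were above 1.0 RPKM in all 4 libraries, so none was lost to the filter on low values, and their levels ran from 2.66 to 79.3 RPKM. In the control library Mrpl17, a large subunit protein with a bacterial counterpart, was highest at 71.5 RPKM, followed by Mrpl49 at 60.2 and Mrpl33 at 57.9. Mrpl40, Mrps2 and Mrps12 were lowest there, at 2.76, 2.94 and 4.66 RPKM. The summed RPKM of the 75 genes was 1938.7 in the miR-106b library, 1873.3 in miR-93, 1441.8 in miR-25 and 1797.7 in cel-miR-67. The miR-25 library was the lowest of the 4 in this sum.

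The same held gene by gene. The miR-25 library had the lowest RPKM of the 4 libraries for 55 of the 75 genes, or 73.3%, against 36.5% of the 10984 genes above 1.0 RPKM in all libraries. The control library was lowest for 10 of the 75, the miR-93 library for 6 and the miR-106b library for 4, against 22.8%, 22.5% and 18.2% of all genes. It was miR-106b and miR-93 that held the highest values, for 37.3% and 36% of the 75 genes, against 19% and 22.9% of all genes, while miR-25 was highest for 5.33% and for 34.5% of all genes. These orders depend on the scale. When all libraries were rescaled to equal RPKM sums (TPM), miR-25 was the lowest library for 36 of the 75 genes, or 48%, against 22.7% of all genes, the control was lowest for 38.7%, close to the 36.8% of all genes, and miR-93 was the highest for 61.3%, against 28.9%. miR-25 was then the highest for 10.7%, against 49% of all genes.

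A gene was called higher or lower when the ratio of its RPKM values was past 1.3-fold (0.38 on the log2 scale), among genes above 1.0 RPKM in both libraries. With miR-25, 34 of the 75 genes were lower than with cel-miR-67, or 45.3%, whereas 22.6% of all 11198 genes tested were lower. Higher genes numbered 4, or 5.33%, against 19.3% of all genes. The median log2 fold change of the 75 genes was -0.28, with an interquartile range from -0.51 to -0.08, and that of all genes was -0.01, ranging between quartiles from -0.33 to 0.29. The counting intervals lay below 0 for 43 of the 75 genes and above 0 for 7. The rescaling to equal sums moved every log2 fold change with miR-25 by 0.24 towards higher values and the median of all genes to 0.22. The median of the 75 genes was then -0.043, with 38 of them below 0 in place of 59, and 16 of the 75 genes were lower and 9 higher, against 12.9% and 36.5% of all genes. The 75 genes lay 0.27 below the median of all genes on either scale. In bulk RNA, fewer cells of a type and less RNA per cell cannot be told apart.

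The 2 mimics with the other seed gave few calls. With miR-106b, 8 of the 75 genes were higher and 1 lower, or 10.7% and 1.33%, against 11.9% and 12.7% of all 11296 genes tested. For miR-93 the counts were 7 higher and 3 lower, or 9.33% and 4%, and 15.1% and 15.6% of all 11280 genes tested. The medians of the 75 genes were 0.06 in both comparisons, and those of all genes were -0.00 for both. Under the rescaling to equal sums, the miR-93 library had 17 of the 75 genes higher and 2 lower, against 25.2% and 9.63% of all genes, and the 75 genes again lay 0.06 above the median of all genes, which was then 0.14.

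**Figure D1:**
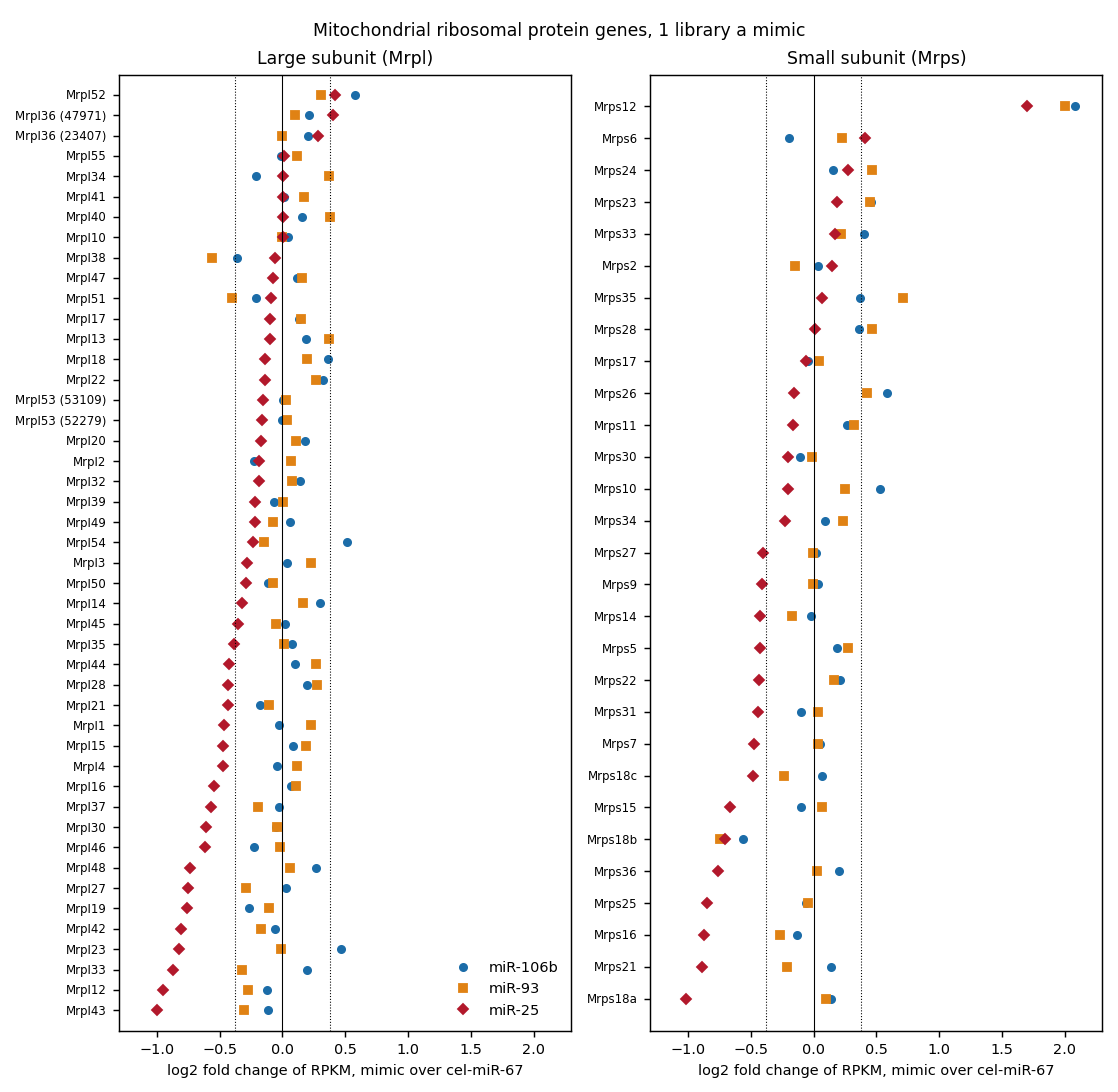
Log2 fold change of RPKM over cel-miR-67 (horizontal axis) for each of the 75 genes, ordered by the value with miR-25, with large subunit genes on the left and small subunit genes on the right. Points stand for single libraries, dotted lines mark 1.3-fold, and digits in brackets end the Ensembl identifiers of symbols listed in 2 rows; 34 genes lie left of the lower line with miR-25, 3 with miR-93 and 1 with miR-106b.

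**Figure D2:**
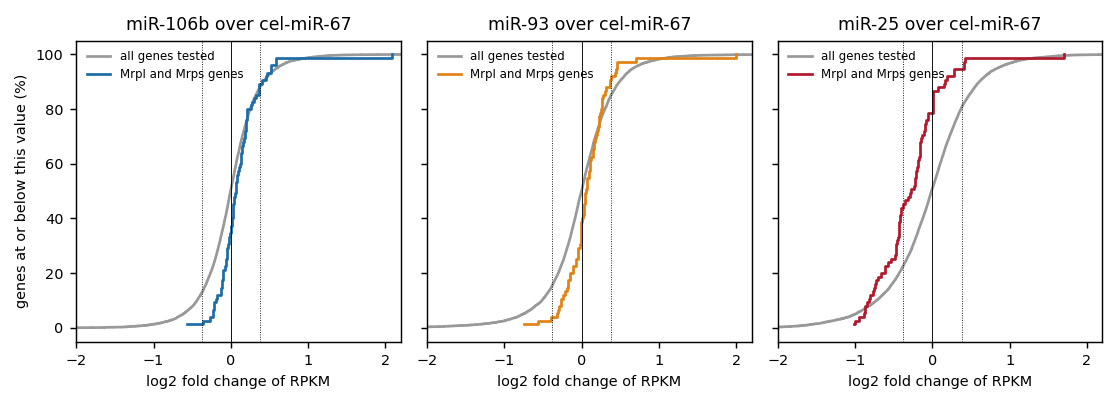
Share of genes (vertical axis, in percent) at or below each log2 fold change of RPKM (horizontal axis) for the 75 genes, in colour, and all genes tested, in grey, 1 panel per mimic over cel-miR-67. With miR-25 the curve of the 75 genes lies to the left of the grey curve at the medians, -0.28 and -0.01. At 2-fold lower it lies to the right, with 1.33% of the 75 genes and 5.01% of all genes below. With miR-106b and miR-93 the curve of the 75 genes rises close to 0.

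Comparing the mimics directly leaves out the control library. Between miR-25 and miR-106b, 40 of the 75 genes were lower with miR-25 and 1 was higher, against 23% and 22.1% of all 11183 genes tested. The counts were also 40 and 1 between miR-25 and miR-93, again against 23% and 22.1%, and the medians were -0.39 and -0.40. Both comparisons share the same miR-25 library, so they are not independent. Rescaled to equal sums, 20 genes were lower and 4 higher than with miR-106b, against 14.6% and 36.1% of all genes, and 31 were lower and 5 higher than with miR-93, against 18.7% and 27%. Between miR-93 and miR-106b only 3 of the 75 genes were lower and 2 higher, against 8.21% and 7.3% of all genes, with a median of -0.03 that became 0.09 under the rescaling to equal sums. Genes called between these 2 mimics were Mrpl54, Mrpl33 and Mrpl23, all lower with miR-93, and Mrpl34 and Mrps6, both higher.

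Genes named for both subunits were among those lower, to be read beside the 22.6% of all genes that were lower and the 19.3% that were higher with miR-25. With miR-25, 19 of 46 large subunit genes were lower and 2 higher, with a median log2 fold change of -0.26, and 15 of 29 small subunit genes were lower and 2 higher, with a median of -0.40. Of the genes with a bacterial counterpart, 23 of 46 were lower and 3 higher, with a median of -0.35. Of the genes specific to mitochondria, 11 of 29 were lower and 1 higher, with a median of -0.22 that became 0.01 under the rescaling to equal sums. The medians of the other 3 classes stayed below 0 there, between -0.17 and -0.02. No test of a difference between these classes was made. Names follow the symbols, and structures place Mrps18a and Mrps30 in the large subunit despite theirs.

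Among the genes lower with miR-25, Mrps18a, 1 of 3 mammalian paralogs related to the bacterial protein S18, had the largest difference. It was at 59.4 RPKM in the miR-106b library, 57.6 in miR-93, 26.6 in miR-25 and 53.9 in cel-miR-67. The miR-25 library stood apart below the other 3, which lay within 0.14 of each other on the log2 scale relative to the control. With miR-25 Mrps18a was 2.03-fold lower, a log2 fold change of -1.02 with an interval from -1.16 to -0.88.

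The other 2 paralogs had other patterns. Mrps18b was at 7.90, 6.97, 7.13 and 11.7 RPKM with miR-106b, miR-93, miR-25 and cel-miR-67, so the control library was the high one and the 3 mimics lay together. Its log2 fold changes were -0.56 (interval -0.70 to -0.42), -0.74 (-0.89 to -0.59) and -0.71 (-0.86 to -0.56). It was the only 1 of the 75 genes past 1.3-fold lower with all 3 mimics, which 3.12% of all genes were, and the 3 comparisons share 1 control library. Mrps18c, at 14.6, 11.9, 9.98 and 14.0 RPKM, was lower with miR-25, at -0.48 (-0.75 to -0.22).

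The large subunit genes with the lowest values were Mrpl43 and Mrpl12. Mrpl43, a protein specific to mitochondria, was at 5.73 RPKM in the miR-106b library, 5.01 in miR-93, 3.103 in miR-25 and 6.20 in cel-miR-67. Its log2 fold change with miR-25 was -0.998, with a wide interval from -1.45 to -0.55 because it rested on 68 and 113 reads. Mrpl12 is a protein of the stalk, the part of the large subunit that recruits translation factors, and it also binds the mitochondrial RNA polymerase. It was at 48.5, 43.7, 27.3 and 52.7 RPKM, with a log2 fold change of -0.95 (-1.06 to -0.84) with miR-25, and the miR-25 library was again the low one. Mrpl10, which anchors Mrpl12 in the stalk, was at 11.27, 10.90, 10.96 and 10.95 RPKM, and its log2 fold change with miR-25 was 0.00 (-0.17 to 0.18). These neighbours in the stalk therefore had different values with miR-25.

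Small subunit genes of the same kind were Mrps21, Mrps16 and Mrps25. Mrps21 was at 24.9 RPKM in the miR-106b library, 19.6 in miR-93, 12.2 in miR-25 and 22.6 in cel-miR-67, a log2 fold change with miR-25 of -0.89 (-1.12 to -0.66). Mrps16, at -0.87 (-1.09 to -0.66), and Mrps25, at -0.85 (-1.02 to -0.68), lay close to it. Mrps36, now known as a component of the alpha-ketoglutarate dehydrogenase complex and no part of the ribosome, fits the symbol rule and was at -0.76 (-0.93 to -0.60).

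Mrpl33 and Mrpl23 differed among all the mimics. Mrpl33, a small protein near the tRNA exit site, was at 66.5 RPKM in the miR-106b library, 46.3 in miR-93, 31.6 in miR-25 and 57.9 in cel-miR-67. Mrpl23, at the mouth of the tunnel through which the nascent chain leaves, was at 57.2, 41.1, 23.3 and 41.3 RPKM in the same order. miR-106b was the highest and miR-25 the lowest library for both, and Mrpl33 was at -0.32 (-0.50 to -0.14) with miR-93. Mrpl23 was the 1 gene of the 75 called in opposite directions, which 7.37% of all genes were, with log2 fold changes of 0.47 (0.31 to 0.63) with miR-106b and -0.83 (-1.03 to -0.63) with miR-25. Its difference between miR-25 and miR-106b, at -1.295 (-1.48 to -1.11), was the largest of the 75.

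**Figure D3:**
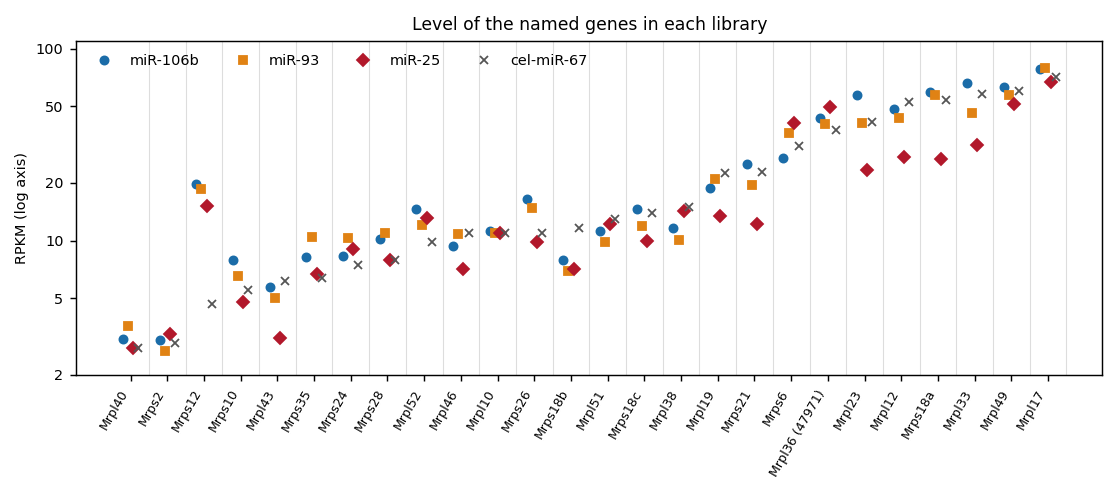
RPKM of the named genes (vertical log axis) in each of the 4 libraries, ordered by the level with cel-miR-67. Each point is 1 library. Mrps12 has 1 low library, cel-miR-67 at 4.66 RPKM, below mimics between 15.2 and 19.7, whereas in Mrps18a and Mrpl12 the low library is miR-25.

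Mrps12 went the other way. It encodes the counterpart of bacterial S12, a protein of the decoding centre, and was at 19.7 RPKM in the miR-106b library, 18.6 in miR-93, 15.2 in miR-25 and 4.66 in cel-miR-67. The 3 mimic libraries lay together and the control was the low one, with 76 reads against 422, 366 and 297. Mrps12 was 4.23-fold higher with miR-106b, 3.998-fold with miR-93 and 3.25-fold with miR-25, on the log2 scale 2.08 (interval 1.73 to 2.45), 2.00 (1.64 to 2.38) and 1.70 (1.33 to 2.08). It was the only 1 of the 75 genes higher with all 3 mimics, which 3.38% of all genes were. The 3 values rest on the same 76 reads of 1 control library. Sars2, the mitochondrial seryl-tRNA synthetase gene that lies next to Mrps12 in the RefSeq annotation, was at 3.58, 3.77, 1.97 and 3.88 RPKM. Sars2 did not share the low control level. Fbxo17, the other gene next to Mrps12, was lowest in the control library, but at levels under the 1.0 RPKM cutoff in all 4, with 0.190, 0.129, 0.388 and 0.0933 RPKM. Reads of overlapping genes cannot be told apart without strand, and whether the counting used strand is not given in the sources used here.

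The other genes higher with miR-25 were close to the threshold. Mrpl52 was at 14.6, 12.1, 13.1 and 9.79 RPKM with miR-106b, miR-93, miR-25 and cel-miR-67, with log2 fold changes of 0.58 (interval 0.36 to 0.80), 0.30 (0.07 to 0.54) and 0.42 (0.19 to 0.65). Mrps6 was at 27.1, 36.2, 41.0 and 31.0 RPKM, so miR-25 was the highest library and miR-106b the lowest, and its log2 fold change with miR-25 was 0.41 (0.24 to 0.57). Of the 2 rows of Mrpl36, the shorter was at 0.40 (0.17 to 0.64) and the longer at 0.29 (0.07 to 0.50) with miR-25. The 2 rows of Mrpl53 held nearly the same number of reads, 535 and 531 with miR-106b, so they are not independent measurements.

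With miR-106b, the highest after Mrps12 were Mrps26, Mrpl52, Mrps10 and Mrpl54. Mrps26, specific to mitochondria, was at 16.6 RPKM in the miR-106b library, 14.8 in miR-93, 9.89 in miR-25 and 11.03 in cel-miR-67, log2 fold changes of 0.59 (interval 0.36 to 0.82), 0.43 (0.19 to 0.66) and -0.16 (-0.41 to 0.10). The libraries formed a higher pair, miR-106b and miR-93, and a lower pair. Mrps10 was at 7.92, 6.53, 4.76 and 5.50 RPKM, at 0.53 (0.25 to 0.80) with miR-106b. Mrpl54 was at 67.7, 42.8, 40.2 and 47.3 RPKM, so only the miR-106b library stood out, and its log2 fold change there was 0.52 (0.38 to 0.66). The lowest after Mrps18b with miR-106b were Mrpl38, Mrpl19 and Mrpl46, at -0.36 (-0.55 to -0.17), -0.27 (-0.43 to -0.11) and -0.23 (-0.42 to -0.03), none of them past 1.3-fold.

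With miR-93, the highest after Mrps12 was Mrps35, a small subunit protein specific to mitochondria. It was at 8.25, 10.4, 6.69 and 6.38 RPKM with miR-106b, miR-93, miR-25 and cel-miR-67, with a log2 fold change of 0.71 (0.51 to 0.91) with miR-93. Mrps28 and Mrps24 were both at 0.46 with miR-93, with intervals from 0.22 to 0.71 and from 0.24 to 0.69. The lower genes with miR-93 besides Mrps18b were Mrpl38, at -0.56 (-0.77 to -0.36), and Mrpl51, at -0.40 (-0.56 to -0.24). Mrpl38, a protein of the central protuberance, was at 11.6, 10.1, 14.3 and 14.9 RPKM, so miR-106b and miR-93 were its 2 low libraries and its log2 fold change with miR-25 was -0.06 (-0.24 to 0.13). Mrpl38 was higher with miR-25 than with miR-93, at 0.51 (0.31 to 0.70), the reverse of 40 of the 75 genes.

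Some of these genes were close to the control with every mimic. For 26 of the 75, or 34.7%, all 3 mimics were within 1.3-fold of cel-miR-67, against 40.4% of all genes. Of the 34 genes lower with miR-25, 33, or 97.1%, were lower with miR-25 alone, the other being Mrps18b, and of all genes lower with miR-25 the share was 69.6%. Values near the threshold included Mrpl35 just past it with miR-25, at -0.38, and Mrpl45 just inside it, at -0.36.

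Gene length moved with the values in the miR-25 library and also with miR-106b. With miR-106b the medians of all genes were 0.12 up to 1000 bases and -0.03 above 2000. Those of the members were 0.13 and 0.02. Of all genes up to 1000 bases long, 36.1% were lower with miR-25, and their median log2 fold change was -0.16. The 37 mitochondrial ribosomal protein genes in this range had a median of -0.19, with 37.8% lower, so they lay close to other short genes. Between 1000 and 2000 bases the 24 members had a median of -0.28 and 45.8% lower, against -0.02 and 21.6% of all genes. Above 2000 bases the 14 members had a median of -0.43 and 64.3% lower, against 0.02 and 19.9%. Between miR-25 and cel-miR-67 the members thus lay apart from other genes only above 1000 bases. Between miR-25 and the other mimics they did so among short genes too. Up to 1000 bases the medians of members and of all genes were -0.43 and -0.26 between miR-25 and miR-106b, with 54.1% and 41.5% lower, and -0.37 and -0.18 between miR-25 and miR-93, with 48.6% and 34.5% lower. The part of length in these values was not tested further.

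**Figure D4:**
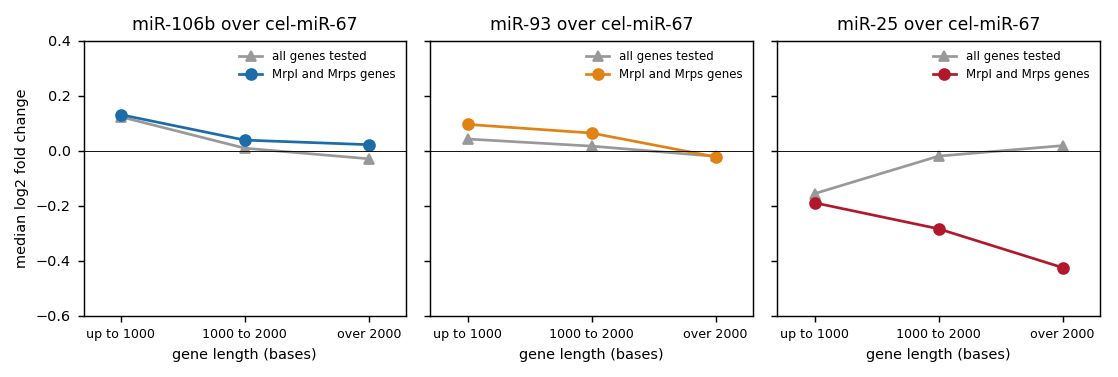
Median log2 fold change over cel-miR-67 (vertical axis) in 3 ranges of gene length (horizontal axis, in bases), for the 75 genes in colour and all genes tested in grey, 1 panel per mimic. With miR-25 the 2 medians are -0.19 and -0.16 up to 1000 bases and -0.43 and 0.02 over 2000 bases.

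The other genes of mitochondrial translation had medians closer to 0 with miR-25 than the -0.28 of the 75 genes. Of 15 translation factors, 5 were lower, or 33.3% against 22.6% of all genes, and none was higher, with a median of -0.25. Gfm1, the elongation factor that moves the ribosome along the mRNA, was at 40.2, 40.8, 21.5 and 48.1 RPKM with miR-106b, miR-93, miR-25 and cel-miR-67, a log2 fold change of -1.16 (-1.24 to -1.08) with miR-25. Mtrf1, a release factor, was the highest of the list with miR-25, at 0.19 (-0.04 to 0.42), and Mrrf, the recycling factor, the highest with miR-93, at 0.53 (0.31 to 0.75). Tsfm, the exchange factor of the elongation factor Tufm, was lower with both miR-93, at -0.47 (-0.71 to -0.23), and miR-25, at -0.40 (-0.63 to -0.17). Guf1, the counterpart of the bacterial translation factor LepA, was the lowest of the list with miR-106b, at -0.35 (-0.47 to -0.22).

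Of the 5 mitoribosomal proteins that carry other names, 1 was lower with miR-25, or 20%, and none higher, with a median of -0.16. That gene was Chchd1, a small subunit protein, at 50.1, 43.9, 25.7 and 38.0 RPKM, with log2 fold changes of 0.40 (0.24 to 0.57) with miR-106b and -0.56 (-0.76 to -0.37) with miR-25. Dap3 and Ptcd3, both of the small subunit, were at -0.10 (-0.21 to 0.01) and -0.17 (-0.26 to -0.07) with miR-25. Gadd45gip1, of the large subunit, was the highest of them with miR-93, at 0.32 (0.16 to 0.48), and with miR-25, at -0.02 (-0.19 to 0.15). Of 22 assembly factors tested, 4 were lower with miR-25, or 18.2%, which is below the share of all genes, and none higher, with a median of -0.20. Tfb1m, which methylates the small subunit RNA, was the lowest of them at -0.53 (-0.81 to -0.25), and Malsu1, a large subunit assembly factor, the highest at 0.31 (0.04 to 0.59). With miR-93 the highest was Mpv17l2, at 0.56 (0.36 to 0.76), and with miR-106b no assembly factor was past 1.3-fold. The lowest were Mtg2 with miR-106b, at -0.29 (-0.48 to -0.10), and Spg7 with miR-93, at -0.27 (-0.40 to -0.14).

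With miR-25, 5 of 18 mitochondrial aminoacyl-tRNA synthetases, which charge the tRNAs, were lower, or 27.8% against 22.6% of all genes. Higher were 2, or 11.1% against 19.3%, and the median was -0.17. Of 17 genes of mitochondrial transcription and RNA processing, 5 were lower, or 29.4%, and 1 higher, with a median of -0.24. Protein import, through which every mitochondrial ribosomal protein passes, had 14 of 23 genes lower, or 60.9%, and none higher, with a median of -0.52. For miR-106b and miR-93 the medians of these lists lay between -0.09 and 0.21. Under the rescaling to equal sums, the miR-25 medians of the proteins with other names, the assembly factors and the synthetases turned to 0.08, 0.04 and 0.07, those of the translation factors and of transcription and RNA processing were -0.01 and -0.002, and that of protein import was -0.28.

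Genes of the respiratory chain, part of whose subunits these ribosomes make, were further from the control with miR-25. Of 76 nuclear genes of the respiratory chain, 68 were lower with miR-25, or 89.5% against 22.6% of all genes. Only 1 was higher, or 1.32% against 19.3%, and the median log2 fold change was -0.84. All 11 mitochondrially encoded mRNAs were lower, with a median of -0.70. The miR-25 library was the lowest of the 4 for 74 of the 76 and for 11 of the 11, against 36.5% of all genes. After rescaling to equal sums it was lowest for 72 and 7, against 22.7% of all genes, with medians of -0.60 and -0.46. With miR-106b and miR-93 the nuclear respiratory chain medians were 0.08 and -0.06, and those of the mitochondrial mRNAs -0.11 and -0.24.

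Cytosolic ribosomal protein genes, which build the ribosomes outside the mitochondrion, had a different order of the mimics. With miR-106b, 17 of 84 tested were higher and 1 lower, or 20.2% and 1.19%, against 11.9% and 12.7% of all genes. With miR-93, 29 of 83 were lower and 2 higher, or 34.9% and 2.41%, against 15.6% and 15.1%. For miR-25, 46 of 82 were lower and 1 higher, or 56.1% and 1.22%, against 22.6% and 19.3%. The medians with the 3 mimics in this order were 0.18, -0.20 and -0.43, and 0.22, -0.05 and -0.19 under the rescaling to equal sums. Between miR-93 and miR-106b, 45 of 85 cytosolic ribosomal protein genes were lower, or 52.9% against 8.21% of all genes. Their median was -0.43, or -0.31 after rescaling, whereas the median of the 75 mitochondrial ribosomal protein genes was -0.03, or 0.09 after rescaling. No test of the difference between the 2 kinds of ribosomal protein gene was possible with 1 library per mimic. The shares of all genes depended on gene length. Of all genes up to 1000 bases, 21.3% were lower between miR-93 and miR-106b. Over cel-miR-67 the shares lower in this range were 17.3% with miR-93 and 36.1% with miR-25. The lengths of the cytosolic ribosomal protein genes were not taken into account here.

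**Figure D5:**
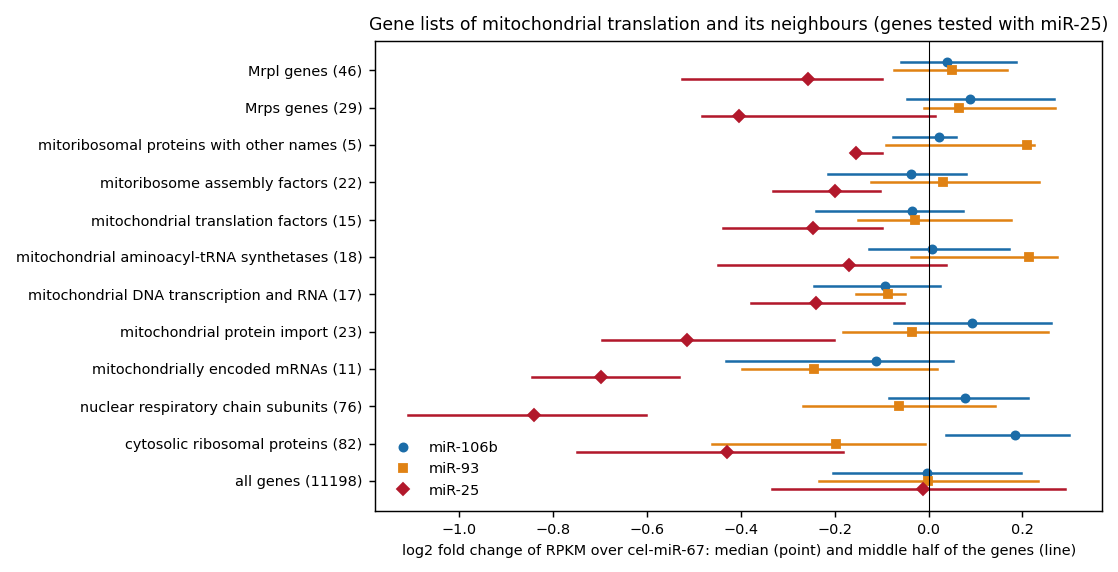
Median log2 fold change of RPKM over cel-miR-67 (points) and interquartile range over the genes (lines) for the mitochondrial ribosomal protein genes and other lists, with the number of genes tested with miR-25 in brackets. With miR-25 the medians run from -0.16 in the mitoribosomal proteins with other names to -0.84 in the nuclear respiratory chain subunits.

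Regulators of nuclear genes for mitochondria differed in direction with miR-25. Ppargc1a, a coactivator of mitochondrial gene expression, was at 8.67 RPKM in the miR-106b library, 9.26 in miR-93, 10.4 in miR-25 and 6.27 in cel-miR-67, with log2 fold changes of 0.47 (interval 0.29 to 0.65), 0.56 (0.38 to 0.75) and 0.73 (0.56 to 0.91). Yy1, a factor that binds many promoters of mitochondrial genes, was at 21.3, 24.7, 28.9 and 18.5 RPKM, at 0.65 (0.51 to 0.79) with miR-25. Gabpa, an ETS family factor, was at 0.40 (0.30 to 0.51) with miR-25, and Nrf1 at 0.35 (0.14 to 0.56). These 4 genes were highest in the miR-25 library. Esrra, a nuclear receptor, was at -0.23 (-0.36 to -0.10), which became 0.01 under the rescaling to equal sums, and Myc, a promoter of ribosome synthesis, was at 2.77, 2.46, 1.35 and 2.83 RPKM and at -1.07 (-1.47 to -0.68) with miR-25.

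Promoters of 58 of the 73 symbols were matched in RefSeq (build GRCr8), each as 250 bases before and 50 after the gene start, and searched on both strands for motifs of these kinds of factor. The ETS motif CCGGAAG was in 19 of the 58 promoters, or 32.8%, against 8.75% of all 33469 promoters of the same length and 10.7% of the 21842 promoters of coding genes. The YY1 motif ATGGCGG was in 13, or 22.4%, against 4.8% and 6%, and the NRF1 motif GCATGCG in 6, or 10.3%, against 3.33% and 3.99%. The E-box CACGTG, to which Myc and other factors bind, was in 6, or 10.3%, against 6.42% and 7.01%. A promoter could hold several motifs, and different motifs overlapped in 0 of the 58. Of the 26 matched symbols lower with miR-25, 12 held the ETS motif and 6 the YY1 motif, and of the other 32, 7 held the ETS and 7 the YY1 motif. A match is a description of letters, and whether these factors bind there was not measured.

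Promoters of 3 genes are printed, on the strand of each gene and with the motifs in capitals, because they set the paralog lowest with miR-25 beside the paralog lower with all mimics and add a gene of a facing pair. That of Mrps18a (chr9:22367331-22367630, minus strand) holds the ETS and YY1 motifs. That of Mrps18b (chr20:2842756-2843055, plus strand) holds the E-box, the NRF1 motif and the ETS motif, the last as its reverse complement. Its NRF1 stretch holds the motif on both strands, in matches that overlap each other. That of Mrpl46 (chr1:142116981-142117280, minus strand) holds the YY1 motif.
Mrps18a: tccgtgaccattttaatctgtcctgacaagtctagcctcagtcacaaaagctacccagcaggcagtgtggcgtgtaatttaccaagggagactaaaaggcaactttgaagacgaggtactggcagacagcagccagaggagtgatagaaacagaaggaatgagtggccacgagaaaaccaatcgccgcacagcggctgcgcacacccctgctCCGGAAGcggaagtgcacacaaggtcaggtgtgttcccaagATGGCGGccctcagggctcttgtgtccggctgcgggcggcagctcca
Mrps18b: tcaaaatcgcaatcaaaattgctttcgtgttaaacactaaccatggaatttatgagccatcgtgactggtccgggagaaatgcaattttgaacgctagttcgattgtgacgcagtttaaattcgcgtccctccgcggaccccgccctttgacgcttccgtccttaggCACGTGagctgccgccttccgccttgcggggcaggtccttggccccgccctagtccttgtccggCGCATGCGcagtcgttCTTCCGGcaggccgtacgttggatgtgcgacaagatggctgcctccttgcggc
Mrpl46: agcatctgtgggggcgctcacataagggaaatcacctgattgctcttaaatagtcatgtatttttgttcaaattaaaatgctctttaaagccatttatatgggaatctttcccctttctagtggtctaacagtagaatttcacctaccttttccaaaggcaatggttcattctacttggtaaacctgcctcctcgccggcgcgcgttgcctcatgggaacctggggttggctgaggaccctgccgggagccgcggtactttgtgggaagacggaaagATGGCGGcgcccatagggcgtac

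Many of these genes start close to another gene on the opposite strand. By the RefSeq annotation, 17 of the 58 matched symbols, or 29.3%, had a coding gene that faced away from them with a start within 1000 bases, against 1373 of 18999 coding symbols, or 7.23%. Mrpl46 and Mrps11 form such a pair, with 234 bases between their starts. Mrpl46 was at 9.34, 10.8, 7.12 and 10.9 RPKM and Mrps11 at 20.9, 21.7, 15.5 and 17.4 RPKM with miR-106b, miR-93, miR-25 and cel-miR-67. With miR-25, Mrpl46 was at -0.62 (-0.84 to -0.40) and Mrps11 at -0.16 (-0.38 to 0.05), so 1 gene of the pair was past 1.3-fold and the other was not.

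Of the neighbours, 14 were tested with miR-25. Of these 6 were lower, or 42.9% against 22.6% of all genes, and none higher, against 19.3%. The 14 include Mrpl46 and Mrps11, each as the neighbour of the other, and Mrpl46 is among the 6. In 1 of the pairs tested, Mrps27 and Ptcd2, both genes were lower. Ptcd2 was barely past the threshold, at -0.379, with 2.12 RPKM in the miR-25 library and 2.75 in cel-miR-67. Eme1, the neighbour of Mrpl27, was not among the 14, because its 0.565 RPKM with miR-25 was under the 1.0 cutoff. Eme1 was at 1.64 RPKM with cel-miR-67, and Mrpl27 was at -0.75 with miR-25. Ndufb5, a subunit of respiratory complex I that shares its start region with Mrpl47, was at -1.03 with miR-25, whereas Mrpl47 was at -0.08. Ncapd2, a condensin subunit next to Mrpl51, was at -0.92, and Mrpl51 at -0.09. In the other direction, Mrps7 was at -0.47 and its neighbour Gga3 at 0.13. In these 3 pairs, picked after their values were seen, the miR-25 library gave different values for genes that share a start region. Other pairs lay closer together, such as Mrpl40 and Hira, at 0.01 and 0.06.

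Markers of cell types differed between the libraries too. Of 10 cardiomyocyte markers 9 were in the table and none was at 0, and their summed RPKM was 14543.9 in the miR-106b library, 10884.6 in miR-93, 11356.1 in miR-25 and 14708.1 in cel-miR-67, so all 4 libraries carried the defining genes of the labelled cells. With miR-25, 8 of the 9 were lower and 1 higher, or 88.9% and 11.1%, against 22.6% and 19.3% of all genes. Their median log2 fold change was -0.66. The lowest was the sarcomere gene Tnni3, at 351.4 RPKM with cel-miR-67 and 15.9 with miR-25. With miR-106b, 2 of the 9 were lower and 1 higher, or 22.2% and 11.1%, against 12.7% and 11.9% of all genes. With miR-93, 4 were lower and 1 higher, or 44.4% and 11.1%, against 15.6% and 15.1%. The 10 fibroblast markers summed to 664.4, 767.1, 350.0 and 851.6 RPKM with miR-106b, miR-93, miR-25 and cel-miR-67. With miR-25, 7 of the 10 were lower, or 70%, and 1 was higher. With miR-106b and with miR-93, 5 of the 10 were lower, or 50%, and none was higher. The 6 smooth muscle and pericyte markers summed to 160.2, 78.3, 334.4 and 130.4, most of it from Cnn1. Of the 5 tested with miR-25, 4 were higher and 1 lower, with a median of 0.99. Of 5 tested with miR-106b, 2 were lower and 1 higher, and of 4 tested with miR-93, 3 were lower and none higher. Macrophage markers, 8 of 8 in the table, summed to between 14.0 and 20.7, and endothelial markers, 7 of 8 in the table, to between 5.7 and 8.5, with none at 0. With miR-25, 3 of 5 macrophage markers tested were lower and none higher, with a median of -0.52. Of 3 endothelial markers tested, 2 were lower and 1 higher, with a median of -0.93. The part of these differences in the values of the mitochondrial ribosomal protein genes was not tested.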

How the data were processed

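Per the labels and the methods, the authors checked reads with FASTQC, trimmed adaptors with Cutadapt, aligned them with STAR 2.7 to the rat genome build Rnor_6.0, rounded counts per gene and scaled them in edgeR. The deposited values are RPKM per gene, 1 library for each of the 4 mimics, and the program that counted reads on genes is not given in the sources used here. Values given for single samples were identical to those of the table for the whole series.

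From the RPKM values, fold changes were computed here as ratios without a pseudocount for genes above 1.0 RPKM in both libraries, and called past 1.3-fold, the cutoffs used in the study's results. Because whole reads were counted, a gene's RPKM ratios between libraries become ratios of integers when divided by the ratio of library sizes. This gave reads for 15728 of 15731 genes, with a common factor multiplied back for 654 genes so that gene lengths came out whole, and library sizes between 22674410 and 29749467 reads. The recovery was tested on simulated data. Exact Clopper-Pearson intervals at 95% came from these reads and cover counting error only. No test across genes was made, since there is 1 library per group, and no count model was used.

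The members, the other gene lists and the rule for named genes were chosen with earlier results of these data known. Named members were the 4 highest and 4 lowest log2 fold changes with each mimic, those called alike with all 3 mimics or oppositely with 2, the 3 highest and 3 lowest control levels, the Mrps18 paralogs and the stalk genes, of which Mrpl11 was not analysed here. Mrpl27, Mrpl34, Mrpl35, Mrpl45, Mrpl47, Mrps7, Mrps11, Mrps16, Mrps25, Mrps27, Mrps30, Mrps36 and the second rows of Mrpl36 and Mrpl53 were named after their values were seen. The neighbouring genes and single cell type markers were named in the same way. Of the other lists, the highest and lowest genes of the translation factors, the mitoribosomal proteins with other names and the assembly factors with each mimic were named, and the 6 regulators. Sequences came from RefSeq (build GRCr8), which differs from the build of the files, so no other coordinates are given. The letters of the motifs were chosen after values of these data were seen: longer forms of the NRF1 and YY1 motifs were searched first and replaced by the short cores after their results were known. Alternatives were RPKM cutoffs of 0, 2 and 10, a pseudocount of 0.1 or 1, subtraction of the median over genes, rescaling to equal sums (TPM), fold cutoffs of 1.5 and 2, counting intervals that exclude 0 and, chosen after seeing the data, 1 row a symbol. Computations used Python 3.11.15, numpy 2.4.6, pandas 2.3.3, scipy 1.17.1 and matplotlib 3.10.9.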

Additional observations from a re-analysis of the deposited data

How the results depend on the processing

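The counts depended on the fold cutoff and on the scale of the libraries. RPKM cutoffs of 0 and 2 could not change those of the 75 genes, whose lowest level in any library was 2.66 RPKM. At 1.5-fold, miR-106b had 2 genes higher and 0 lower (2.67% and 0%, against 5.21% and 5.73% of all genes), miR-93 had 2 higher and 1 lower (2.67% and 1.33%, against 6.92% and 8.35%), and miR-25 had 1 higher and 17 lower (1.33% and 22.7%, against 10.6% and 13.7%). At 2-fold each mimic had 1 gene higher, Mrps12, and miR-106b and miR-93 had 0 lower and miR-25 had 1, Mrps18a. With miR-25 the order of the shares lower thus turned at 2-fold, to 1.33% of the 75 genes against 5.01% of all genes. Above 10 RPKM in both libraries, miR-106b had 5 higher and 0 lower of 60 genes (8.33% and 0%, against 8.83% and 9.84% of all genes). There miR-93 had 2 higher and 1 lower of 61 (3.28% and 1.64%, against 8.99% and 14.4%). With miR-25, 2 of 57 were higher and 25 lower (3.51% and 43.9%, against 13.8% and 21.8%). Rescaled to equal sums (TPM), 17 were higher with miR-93 (22.7%, against 25.2% of all genes). With miR-25, 9 were then higher and 16 lower (12% and 21.3%, against 36.5% and 12.9%), and the median was -0.043. Centring left 33 lower with miR-25 (44%, against 22% of all genes). A pseudocount of 1 RPKM left 31 (41.3%, against 19.6%), and 1 row a symbol 34 of 73 (46.6%, against 22.6%). Every called gene had a counting interval that excluded 0. The direction of the medians of the 75 genes against cel-miR-67 did not change under any of these. No paired analysis was possible because each mimic has 1 library and the labels carry no replicate numbers. Differences smaller than about 0.18 on the log2 scale, the median reach of a counting interval with miR-25, were not detectable for a typical gene at this depth, and the spread between dishes was not measured.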
